A study of Ovis aries with 32 samples.

Results

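The enzymes that build triglyceride were followed one by one in perirenal preadipocytes of fetal sheep and in the adipocytes differentiated from such cells in culture. They are the 10 genes of the table whose names are GPAM, GPAT3, GPAT4, AGPAT1, AGPAT3, LPIN1, LPIN2, LPIN3, MOGAT1 and DGAT2. These enzymes were chosen by name, with earlier results of these data known. They are 10 of 21271 genes and hold 17 of 35219 transcripts. RNA was sequenced from 32 libraries, 4 in each of 8 groups. Preadipocytes came from near-term singleton fetuses of Columbia-Rambouillet ewes. The groups are male controls (MC), female controls (FC), males with fetal growth restriction (MFGR) and females with fetal growth restriction (FFGR), and, from the same 4 origins, the adipocytes differentiated in culture (MCD, FCD, MFGRD and FFGRD). Heat was the cause of the growth restriction, since the pregnant ewes were kept at raised ambient temperature in mid gestation, whereas control ewes were kept at a lower temperature and pair-fed. The heat restricts growth through an insufficient placenta, and by the study's methods RNA came from pellets of cultured cells, although the extraction text of the labels speaks of adipose tissue. Nothing in the sources used here says whether the 4 libraries of a group came from separate fetuses or cultures, so the p-values measure the spread between these samples, which may be technical.

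Triglyceride is made mainly by the glycerol phosphate pathway. Glycerol-3-phosphate acyltransferases (GPAM, GPAT3, GPAT4) add a first fatty acid to glycerol 3-phosphate, acylglycerophosphate acyltransferases (AGPAT1, AGPAT3) add another to give phosphatidate, and lipins (LPIN1, LPIN2, LPIN3) remove the phosphate to give diacylglycerol. DGAT2 adds the last fatty acid, and MOGAT1 reaches diacylglycerol by a side route from monoacylglycerol. In adipocytes the product is stored in the lipid droplet, and the early intermediates also feed the phospholipids that every cell needs.

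On the sheep build Oar_rambouillet_v1.0 the genes of the first step lie on chromosome 22 from 35846106 to 35915565 (GPAM), chromosome 6 from 108596154 to 108657424 (GPAT3) and chromosome 26 from 39893937 to 39910437 (GPAT4). AGPAT1 lies on chromosome 20 from 29043529 to 29050837 and AGPAT3 on chromosome 1 from 287256667 to 287344124. The lipins lie on chromosome 3 from 21243624 to 21368703 (LPIN1), chromosome 23 from 42336644 to 42414850 (LPIN2) and chromosome 13 from 72828516 to 72840878 (LPIN3). MOGAT1 lies on chromosome 2 from 239814416 to 239844388 and DGAT2 on chromosome 15 from 58341633 to 58359820. Each lies on a chromosome of its own, and each gene sum covers the 1 to 3 transcripts of the gene in the table.

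The deposited values are normalized reads per transcript, and the sum over the transcripts of a gene is called its gene sum here. They are not divided by transcript length between genes, so levels are compared between libraries and never between enzymes. The values of a library summed to between 9524562 and 21218438, approximately 7654000 to 21340000 reads, and 3 reads correspond to a value of approximately 2.08 to 5.32. In 9 libraries the values fell with the genomic span of the transcript, with slopes from -0.32 to -0.12, against -0.04 to 0.12 in the other 23. These are MFGR replicate 1, FC replicate 2, FFGR replicates 2 and 3, MCD replicates 2 and 4, MFGRD replicate 1, FCD replicate 2 and FFGRD replicate 3. The adipocyte markers ADIPOQ, FABP4, PLIN1, PLIN4, CIDEC, LIPE and PNPLA2 summed to between 150.5 and 869 in preadipocytes and to between 3920 and 183904 in 15 of the 16 differentiated libraries. In the remaining library, FCD replicate 4, they summed to 419. This lies within the range of all preadipocyte libraries, though above that of FC, 157.8 to 383, and so low a level goes against its label. The calls, ratios and correlations of the enzymes over all origins are also given without the 9 libraries, and within an origin each library was left out in turn. All 7 adipocyte markers were called higher after differentiation, and all 4 smooth muscle markers (ACTA2, MYH11, DES, CNN1) were called lower. The smooth muscle markers summed to between 6202 and 59998 in preadipocytes and to between 600.1 and 15401 in differentiated libraries. Their part in the results below was not tested. Of the fibroblast markers 1 was called higher and 3 lower of 7 tested, of macrophage and leukocyte markers 1 higher of 2, and of endothelial markers 1 lower of 4. No epithelial marker was called of 3 tested, KRT8, KRT18 and CDH1 (limma adjusted p from 0.132 to 0.734). In bulk samples fewer cells of a type and less RNA per cell cannot be told apart.

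The first question was which enzymes change when preadipocytes become adipocytes. Over all 4 origins 5 of the 10 enzymes rose and none fell: DGAT2, MOGAT1, GPAT3, GPAM and LPIN1. To be called, an enzyme needed a limma adjusted p-value under 0.05 together with a change of more than 1.5-fold. By this rule 27.9% of the 12737 genes tested were called and 12.7% were called higher. A gene was tested if it reached a value of 10 in at least 4 libraries. DGAT2 and MOGAT1 passed this filter only with differentiated libraries, so a rise was favoured in advance for them. The median log2 fold change of the 10 enzymes was 1.41, against 0.03 for all genes tested. Setting the low values of DGAT2 and MOGAT1 to 3 reads could not move this median, since both enzymes stay above it. The 5 enzymes called belong to the first step (GPAM and GPAT3), the third (LPIN1) and the last (DGAT2), with MOGAT1 from the side route, while neither acylglycerophosphate acyltransferase was called.

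**Figure D1:**
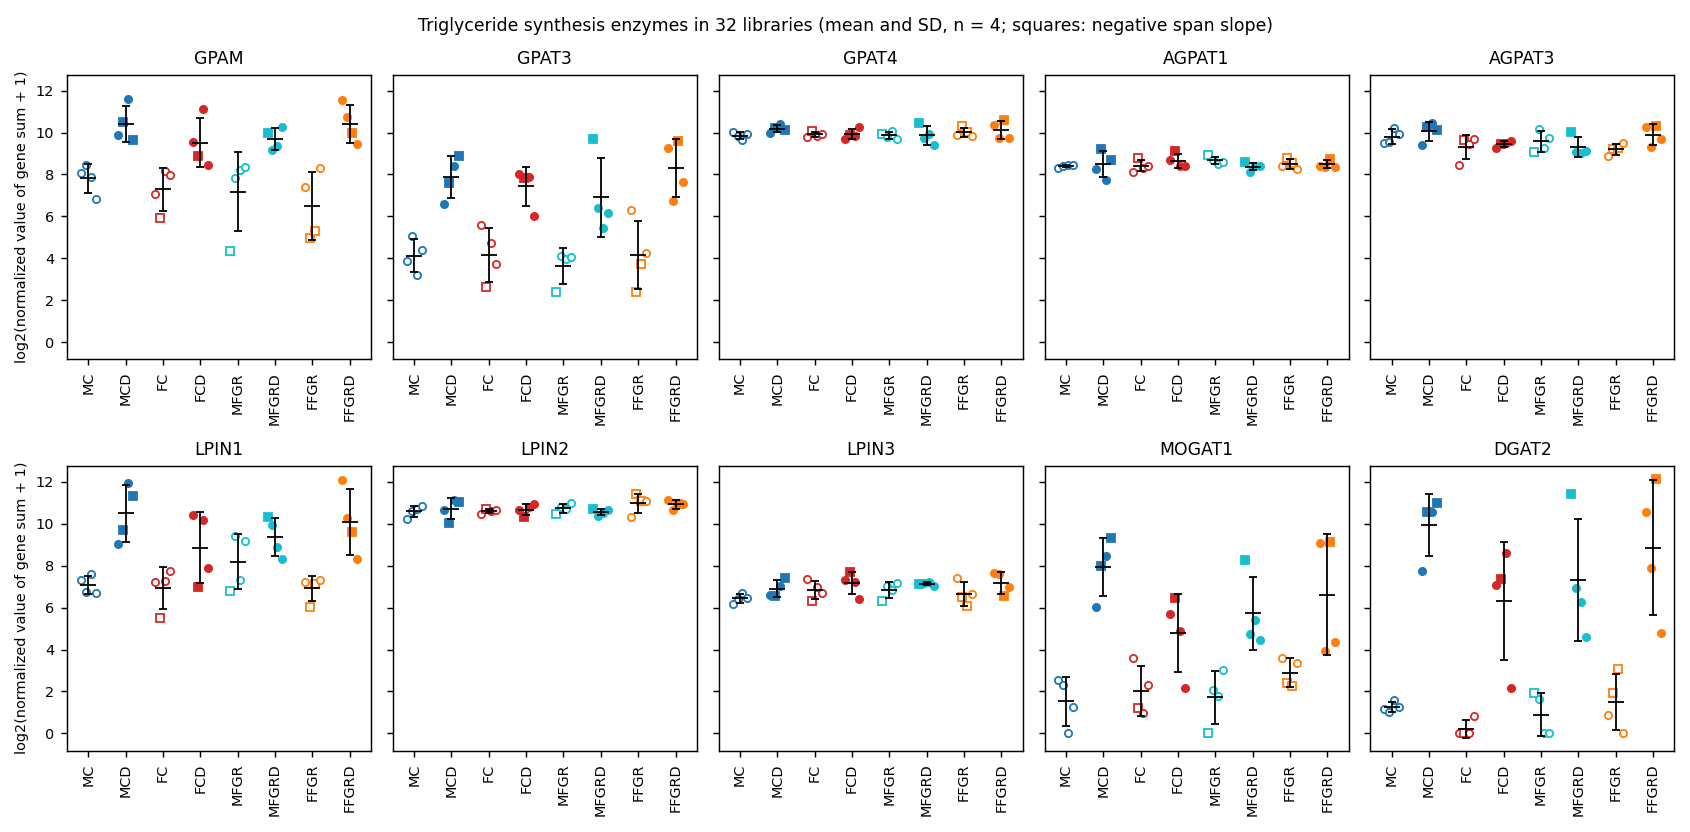
Gene sums of the 10 enzymes as log2(normalized value + 1) on the vertical axis, in the 8 groups on the horizontal axis. Each point is a library, open for preadipocytes and filled for differentiated adipocytes, squares mark the 9 libraries with a negative span slope, and bars give the mean and SD (n = 4). GPAM, GPAT3, LPIN1, MOGAT1 and DGAT2 lie higher after differentiation, and the other 5 enzymes lie at like levels in both stages.

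GPAM, the mitochondrial acyltransferase, had gene sums of 271, 353, 234 and 111 in MC and of 934, 1452, 3132 and 804 in MCD. In females it was 133, 59.8, 286 and 251 in FC and 755, 477, 2225 and 355 in FCD. In growth-restricted males it was 19.5, 224, 295 and 323 in MFGR and 1001, 574, 651 and 1235 in MFGRD. FFGR gave 167, 30.5, 38.5 and 313, and FFGRD gave 2961, 1720, 999 and 708. Every differentiated library lay above every preadipocyte library, and GPAM was the only one of the 10 enzymes of which this holds. The margin was narrow, 355.1 in FCD replicate 4, the library with low adipocyte markers, against 352.6 in MC replicate 2. Over all genes tested 0.440% were higher without overlap. The log2 fold change was 2.82 (SE 0.39, 95% interval 2.02 to 3.62, limma adjusted p = 1.26e-06). The 4 preadipocyte libraries with a negative span slope held the lowest 4 GPAM values, 19.5 to 59.8, against 111 to 353 in the other 12, and without all 9 such libraries the log2 fold change was 2.24 (adjusted p = 1.72e-05).

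GPAT3, an acyltransferase of the endoplasmic reticulum known to rise in fat cell differentiation, was low in preadipocytes, from 4.17 to 78, with a median of 15.2. In MC it was 13.4, 32.2, 8.13 and 19.9 and in MCD 94.6, 194, 337 and 471. FC gave 46.6, 5.11, 25.8 and 12.4, and FCD gave 256, 228, 235 and 64.4. The lowest of the FCD values belongs to replicate 4, the library with low adipocyte markers. In MFGR it was 4.17, 16.2, 14.7 and 15.7 and in MFGRD 817, 82.1, 42.7 and 70.8, so 1 MFGRD library stood far above the other 3. FFGR gave 78, 4.2, 12.3 and 18.3, and FFGRD gave 614, 104, 786 and 199.8. The stages did not overlap within any origin, and over all origins 13 of 16 differentiated libraries lay above the highest preadipocyte library. The log2 fold change was 3.61 (SE 0.41, 95% interval 2.77 to 4.46, limma adjusted p = 5.48e-08), and 2.61 without the 9 libraries with a negative span slope (adjusted p = 8.81e-06).

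GPAT4, the other acyltransferase of the endoplasmic reticulum, was not called. Its gene sum lay between 797 and 1281 in preadipocytes, with a median of 952, and between 669.7 and 1564 after differentiation, with a median of 986. The log2 fold change was 0.11 (95% interval -0.11 to 0.33, limma adjusted p = 0.474). The upper end of this interval lies below the lower end of the intervals of GPAM and GPAT3.

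The acyltransferases of the second step were not called either. AGPAT1 lay between 280.5 and 482 in preadipocytes and between 215 and 593 after differentiation, and its log2 fold change was 0.00 (95% interval -0.24 to 0.24, limma adjusted p = 0.997). AGPAT3 lay between 351 and 1210 in preadipocytes and between 513 and 1397 after differentiation, with a log2 fold change of 0.21 (95% interval -0.12 to 0.53, adjusted p = 0.348). AGPAT2 could not be analysed, since no deposited value carries that gene name, so nothing is known here of its part in this step.

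LPIN1, a lipin that also acts as a transcriptional coregulator, had gene sums of 160.4, 108, 192 and 104 in MC and of 523, 847, 3938 and 2587 in MCD. In FC it was 150.1, 44.5, 151 and 217 and in FCD 1369, 127, 1150 and 234. In MFGR it was 109.5, 693, 161 and 589.6 and in MFGRD 1272, 1001, 479 and 320.5. MFGR replicates 2 and 4 were the highest of all 16 preadipocyte libraries, and both lay above MFGRD replicates 3 and 4. FFGR gave 148, 65.4, 138 and 156, and FFGRD gave 4400, 1239, 794 and 315. The stages did not overlap in MC and FFGR, and they overlapped in FC and MFGR. Over all origins the log2 fold change was 2.42 (SE 0.41, 95% interval 1.57 to 3.26, limma adjusted p = 2.84e-05), and 2.13 without the 9 libraries with a negative span slope (adjusted p = 0.00136).

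The other lipins were not called. LPIN2 lay between 1204 and 2718 in preadipocytes and between 1037 and 2262 after differentiation, with a log2 fold change of -0.01 (95% interval -0.25 to 0.22, limma adjusted p = 0.946). LPIN3 lay between 66.8 and 169 in preadipocytes and between 85.2 and 206 after differentiation. Its log2 fold change of 0.41 had an adjusted p-value of 0.035 (95% interval 0.10 to 0.71), but the fold change of 1.33 was below the threshold. Without the 9 libraries with a negative span slope it was 0.20 (adjusted p = 0.234).

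MOGAT1, which acylates monoacylglycerol, was at or below 3 reads in 7 of 16 preadipocyte libraries and in none of the differentiated ones. In MC it was 4.88, 3.98, 0 and 1.41 and in MCD 65, 252, 349 and 631. FC gave 10.9, 1.28, 0.988 and 3.88, and FCD gave 50.4, 87.6, 28.8 and 3.55. In MFGR it was 0, 3.21, 2.43 and 7.26 and in MFGRD 312, 25.9, 42 and 20.7. FFGR gave 11.2, 4.23, 3.79 and 9.24, and FFGRD gave 539.9, 14.2, 566 and 19.6. FCD replicate 4 was the only differentiated library that did not exceed the highest preadipocyte library. The log2 fold change was 4.23 (SE 0.58, 95% interval 3.05 to 5.42, limma adjusted p = 1.02e-06). With the low preadipocyte values set to 3 reads it was 3.77, and without the 9 libraries with a negative span slope the fitted value was 3.11 (adjusted p = 0.000564).

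DGAT2, which completes triglyceride, was the enzyme with the largest fitted change of the 10. Its preadipocyte values were at or below 3 reads in 14 of 16 libraries, and 6 of these were 0. In MC it was 1.22, 1, 2.03 and 1.42 and in MCD 216, 1502, 1510 and 2025. FC gave 0, 0, 0 and 0.774, and FCD gave 134, 162, 389 and 3.54. In MFGR it was 2.77, 2.15, 0 and 0 and in MFGRD 2757, 122, 77.3 and 23.3. FFGR gave 0.86, 2.81, 7.53 and 0, and FFGRD gave 1512, 235, 4554 and 27.1. The stages did not overlap within any origin, and 15 of 16 differentiated libraries lay above the highest preadipocyte library. In MC, MFGR and FFGR the lack of overlap follows from the filter, since DGAT2 reached 10 only in differentiated libraries. Within an origin 4.84% to 7.59% of genes tested were higher without overlap. Each preadipocyte library of MC and of FC lay at or below 3 reads, so there the rise is a lower bound, with each such library taken at 3 reads. On the log2(value + 1) scale it was at least 223-fold higher in MCD than in MC and at least 18.6-fold higher in FCD than in FC. Over all origins the fitted log2 fold change was 7.15 (SE 0.66, 95% interval 5.80 to 8.51, limma adjusted p = 1.06e-09). It was 5.96 with low preadipocyte values set to 3 reads, 6.49 without the 9 libraries with a negative span slope (adjusted p = 3.6e-07) and 7.50 without FCD replicate 4.

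The second question was whether each origin shows the same enzymes. In MC all 5 were called, against 7.53% of genes. DGAT2 and MOGAT1 entered this fit only through the MCD libraries, so that share is no fair comparison for them. The log2 fold changes were 2.60 for GPAM, 3.75 for GPAT3, 3.41 for LPIN1 and 6.41 for MOGAT1 (limma adjusted p = 0.0124, 0.00571, 0.00956 and 0.0023). DGAT2 is given by its bound above (adjusted p = 0.000225). Without any 1 of the MCD libraries DGAT2 and MOGAT1 reached the value of 10 in only 3 libraries and were not tested, and GPAM, GPAT3 and LPIN1 remained called. In FC none of the 9 enzymes tested was called, against 0.430% of genes by limma, and 4 of the 9, GPAM, GPAT3, LPIN1 and MOGAT1, had an unadjusted p below 0.05. GPAM and GPAT3 did not overlap between FC and FCD, with log2 fold changes of 2.23 and 3.27 (limma adjusted p = 0.199 and 0.0912), and without FCD replicate 4 these were 2.58 and 3.74 (adjusted p = 0.201 and 0.0782). DGAT2 was not tested by limma in FC because only 3 libraries reached the value of 10 that the filter asks for. Its exact permutation test gave an unadjusted p of 0.0286, two-sided, the smallest that 4 against 4 libraries allow. GPAM and GPAT3 gave the same exact p in FC. Fitted without the filter, DGAT2 missed the threshold in FC (limma adjusted p = 0.087).

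In MFGR 1 enzyme was called, DGAT2, against 3.38% of genes, with a log2 fold change of 6.42 (SE 1.31, limma adjusted p = 0.0362). DGAT2 entered the MFGR and FFGR fits only through differentiated libraries, so its direction was fixed in advance. The shares of genes called are therefore no fair comparison for DGAT2. GPAM, GPAT3 and MOGAT1 did not overlap between MFGR and MFGRD but missed the threshold (adjusted p = 0.173, 0.0928 and 0.0626), and LPIN1 had a log2 fold change of 1.19 (95% interval -0.38 to 2.75). MFGRD replicate 1 was the highest MFGRD library for DGAT2. Without it DGAT2 failed the filter of 4 libraries, and its other values, 23.3 to 122, still lay above all of MFGR. The call was also lost without MFGR replicate 2, 3 or 4 and, through the filter, without MFGRD replicate 2, 3 or 4, and GPAM was called in addition without MFGR replicate 1. In FFGR 2 enzymes were called, GPAM with 3.94 (SE 0.80, adjusted p = 0.0418) and DGAT2 with 7.37 (SE 1.49, adjusted p = 0.0417), against 2.67% of genes. All 5 enzymes lay without overlap in FFGR, where 5.01% of genes were higher without overlap. The corresponding counts were 5 enzymes and 7.59% of genes in MC, 2 of 9 and 4.95% in FC, and 4 and 4.84% in MFGR. No preadipocyte library reached 10 for DGAT2, nor for MOGAT1 in MC and MFGR. There both pass the filter only if all 4 differentiated libraries reach 10. Their lack of overlap and the direction of their change therefore follow from the filter. DGAT2 in FC did not overlap either, but it was not tested and is not counted. The FFGR calls did not hold with 1 library less. Only GPAT3 was called without FFGR replicate 1, only GPAM without FFGR replicate 4, only LPIN1 without FFGRD replicate 4, and none of the 10 without any other FFGR or FFGRD library. With the replicate number as a block GPAT3 (limma adjusted p = 0.0391) took the place of GPAM (limma adjusted p = 0.0681). Whether the numbers pair the libraries is not known, and deviations of FFGR and FFGRD replicate 2 correlated at -0.40.

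**Figure D2:**
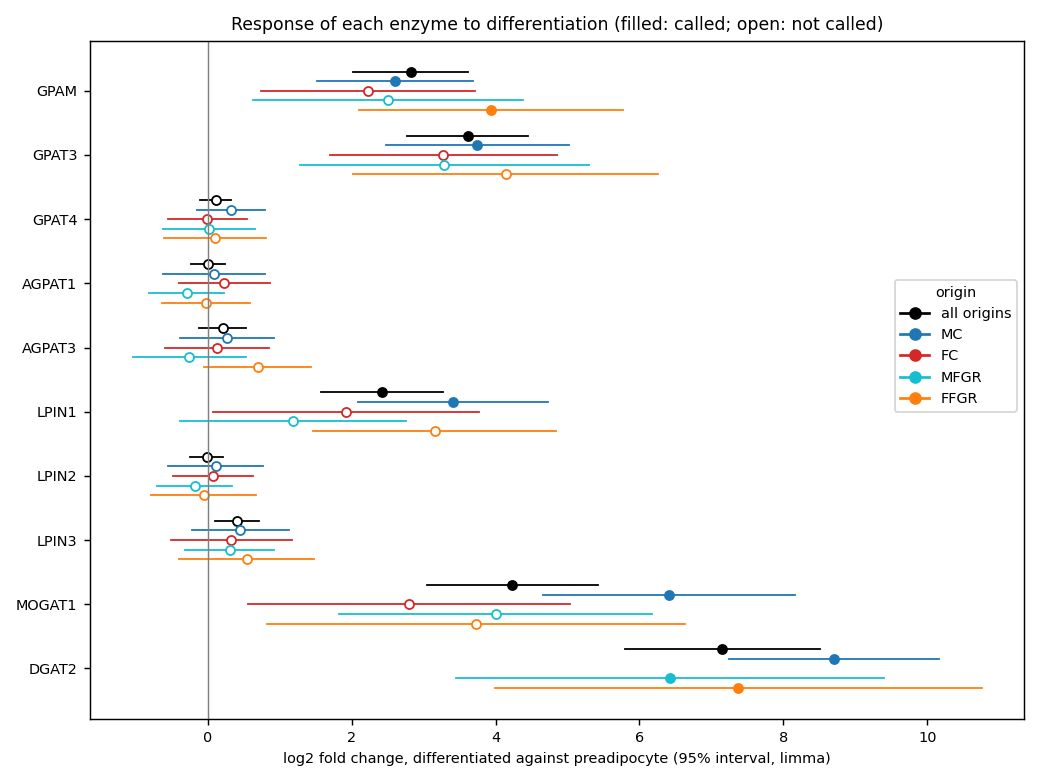
Log2 fold change of each enzyme on differentiation (horizontal axis) with its 95% limma interval, over all origins (black) and in MC, FC, MFGR and FFGR (colours). Filled points were called and open points were not, and DGAT2 has no point in FC, where it was not tested. The intervals of GPAT4, AGPAT1, AGPAT3 and LPIN2 include 0 in each fit shown.

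The difference in response between origins was tested directly. No enzyme was called for growth-restricted against control cells, for males against females or for MFGR against the 3 remaining origins. Of all 12737 genes 0% were called by limma, with 132, 116 and 74 genes at an unadjusted p below 0.05 in these comparisons, and no enzyme was among them. The widest gap for LPIN1 was in MFGR, where its log2 response was lower by 1.64 than in the other origins (95% interval of the difference -3.54 to 0.25). For DGAT2 the same difference was -0.97 (95% interval -4.16 to 2.22) and for GPAM -0.42 (95% interval -2.28 to 1.45). MOGAT1 responded by 1.95 more on the log2 scale in males than in females (95% interval -0.33 to 4.22). Without the 9 libraries with a negative span slope the difference for MFGR was -2.40 for LPIN1, -1.57 for DGAT2 and -1.08 for GPAM, and again no enzyme was called.

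Growth restriction and sex were also compared within each stage. None of the 8 enzymes tested in preadipocytes and none of the 10 in differentiated cells was called by limma, nor was any gene (0% of 12138 and of 12069). An unadjusted p below 0.05 was found for 342 and 95 genes by growth restriction and for 538 and 93 by sex, and no enzyme was among them. In growth-restricted against control cells the differentiated log2 differences were -0.05 for DGAT2 (95% interval -2.87 to 2.77), 0.04 for LPIN1 (-1.41 to 1.49) and 0.10 for GPAM (-0.85 to 1.05). Of the stable enzymes, GPAT4 differed by -0.05 (-0.47 to 0.36) and LPIN2 by 0.05 (-0.34 to 0.44). MOGAT1 and DGAT2 were too low in preadipocytes to pass the filter there.

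The third question was which isoenzyme of a step carries the change. For this the log2 ratio of 2 gene sums was taken within each library, where transcript length cancels from the change, and 7 pairs were compared. In the first step GPAM rose against GPAT4 by 2.71 (SE 0.44) and GPAT3 rose against GPAT4 by 3.50 (SE 0.44), each with an adjusted p of 2.33e-05 (permutation test within origins, two-sided, 100000 permutations, n = 16 against 16). Without the 9 libraries with a negative span slope these differences were 2.20 and 2.55 (permutation adjusted p = 0.000105 for each). In 15 and 14 of 16 differentiated libraries the ratio exceeded that of every preadipocyte library. GPAM against GPAT3 changed by -0.79 (SE 0.45, permutation adjusted p = 0.0894). With the replicate number as a block this difference passed the threshold (exact permutation of signs over 16 pairs, adjusted p = 0.0184), though whether the numbers pair the libraries is not known. Without the 9 libraries with a negative span slope it was -0.35. In the second step AGPAT1 against AGPAT3 changed by -0.21 (SE 0.17, permutation adjusted p = 0.231).

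In the lipin step LPIN1 rose by 2.43 (SE 0.41) against LPIN2 and by 2.01 (SE 0.38) against LPIN3, with permutation adjusted p-values of 2.33e-05 and 3.5e-05, and by 2.11 and 1.99 without these 9 libraries. LPIN2 against LPIN3 fell by 0.42 (SE 0.19, permutation adjusted p = 0.043), and without the 9 libraries with a negative span slope the difference was -0.12 (permutation adjusted p = 0.553). Within single origins LPIN1 rose against LPIN2 by 3.30 in MC, 3.21 in FFGR, 1.85 in FC and 1.37 in MFGR, with exact permutation p-values of 0.0286, 0.0286, 0.171 and 0.143. For GPAT3 against GPAT4 the exact permutation p was 0.0286 in each of the 4 origins, which after adjustment over the 7 pairs was 0.05 in MC and FFGR, 0.0667 in MFGR and 0.2 in FC.

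**Figure D3:**
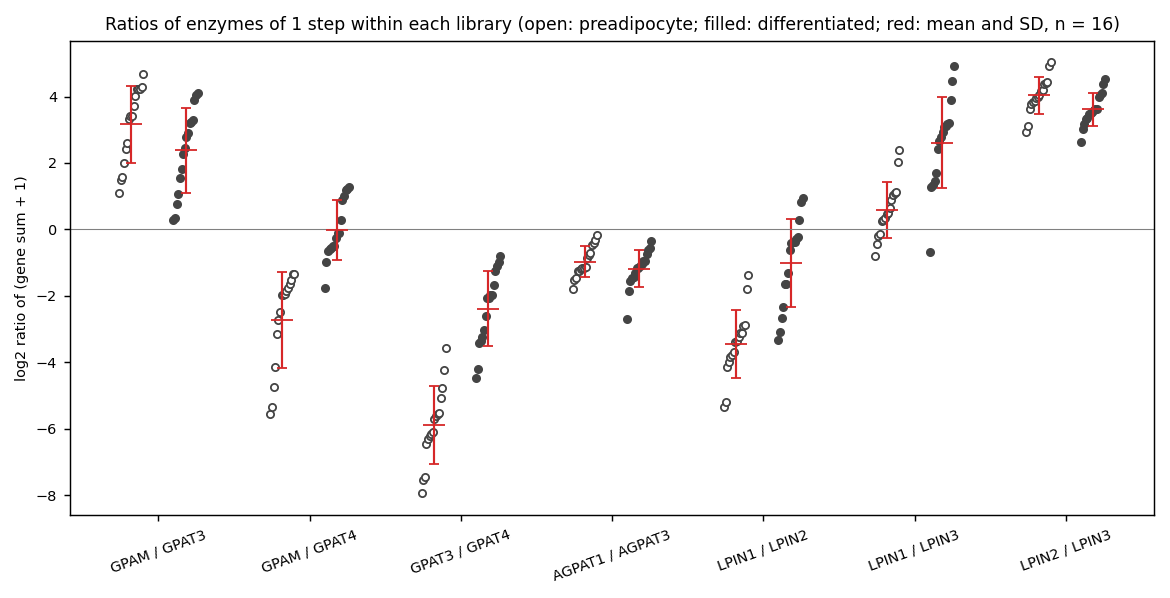
Log2 ratio of (gene sum + 1) of 2 enzymes of the same step within each library (vertical axis), for 7 pairs (horizontal axis). Open points are the 16 preadipocyte and filled points the 16 differentiated libraries, in ascending order, and red bars give the mean and SD. The ratios GPAM to GPAT4, GPAT3 to GPAT4, LPIN1 to LPIN2 and LPIN1 to LPIN3 lie higher after differentiation, and only the GPAM to GPAT3 and LPIN2 to LPIN3 ratios have a mean lower by more than 0.4.

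Single transcripts showed which annotated form holds each gene sum. Of the 17 transcripts 8 were called over all origins, each higher, against 20.4% of transcripts tested. They are GPAM-201, GPAM-203, GPAT3-201, LPIN1-201, LPIN1-202, MOGAT1-201, DGAT2-201 and DGAT2-202. The transcripts of MOGAT1 and DGAT2 passed the filter only with differentiated libraries. By origin 5 of 13 were called in MC (2.83% of transcripts), 0 of 13 in FC (0.143% by limma), 0 of 12 in MFGR (1.32%) and 1 of 14 in FFGR (0.616%), LPIN1-201. In FC and in MFGR 4 transcripts each had an unadjusted p below 0.05, those of GPAM-203, GPAT3-201, LPIN1-201 and MOGAT1-201. No transcript was called by growth restriction, sex or response. For males against females in preadipocytes GPAM-201 gave -2.875 and GPAM-203 gave 2.903 (limma unadjusted p = 0.0181 and 0.0494, adjusted p = 0.826 for each). LPIN1-201 gave -2.313 by growth restriction in preadipocytes, and LPIN3-202 gave -3.775 for the response of MFGR (limma unadjusted p = 0.0313 and 0.0328).

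GPAM-203 held 87.5% of the summed GPAM values in preadipocytes and 85.8% after differentiation. GPAM-201 was listed at 0 in 12 of 16 preadipocyte libraries and in 2 of 16 differentiated ones, with a highest value of 150.2 before and 379.6 after. In FC replicate 1 and FFGR replicates 2 and 3, GPAM-203 was listed at 0 and GPAM-201, GPAM-202 or both held the whole value, at gene sums of 30.5 to 133. LPIN1-202 held 91.3% of the LPIN1 values in preadipocytes and 86.4% after differentiation. LPIN1-201 was listed at 0 in 6 preadipocyte libraries, had a median of 7.58 there and of 127 after differentiation, and reached 420.5 in MCD replicate 2, where it held 49.7% of the gene sum.

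The 2 transcripts of DGAT2 shared the rise unevenly. DGAT2-201 held 62.3% and DGAT2-202 held 37.7% of the values summed over the 15 differentiated libraries with a gene sum of at least 10. DGAT2-202 held more than 50% of the gene sum in 4 of these and was listed at 0 in 4 others. In MCD it was 0, 1093, 1155 and 698, against 216, 409.8, 355 and 1327 for DGAT2-201. In MFGRD replicate 3 the whole value of 77.3 was DGAT2-202, whereas in replicates 2 and 4 it was DGAT2-201. Salmon divides reads that fit both transcripts between them, so the split is an estimate. The enzymes that were not called each had 1 leading form. GPAT4-201 held 97.2% and 99.9% of the values before and after differentiation, LPIN2-202 held 95.9% and 95.4%, and LPIN3-201 held 81.4% and 79.4%. AGPAT1 and AGPAT3 each have 1 transcript in the table.

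**Figure D4:**
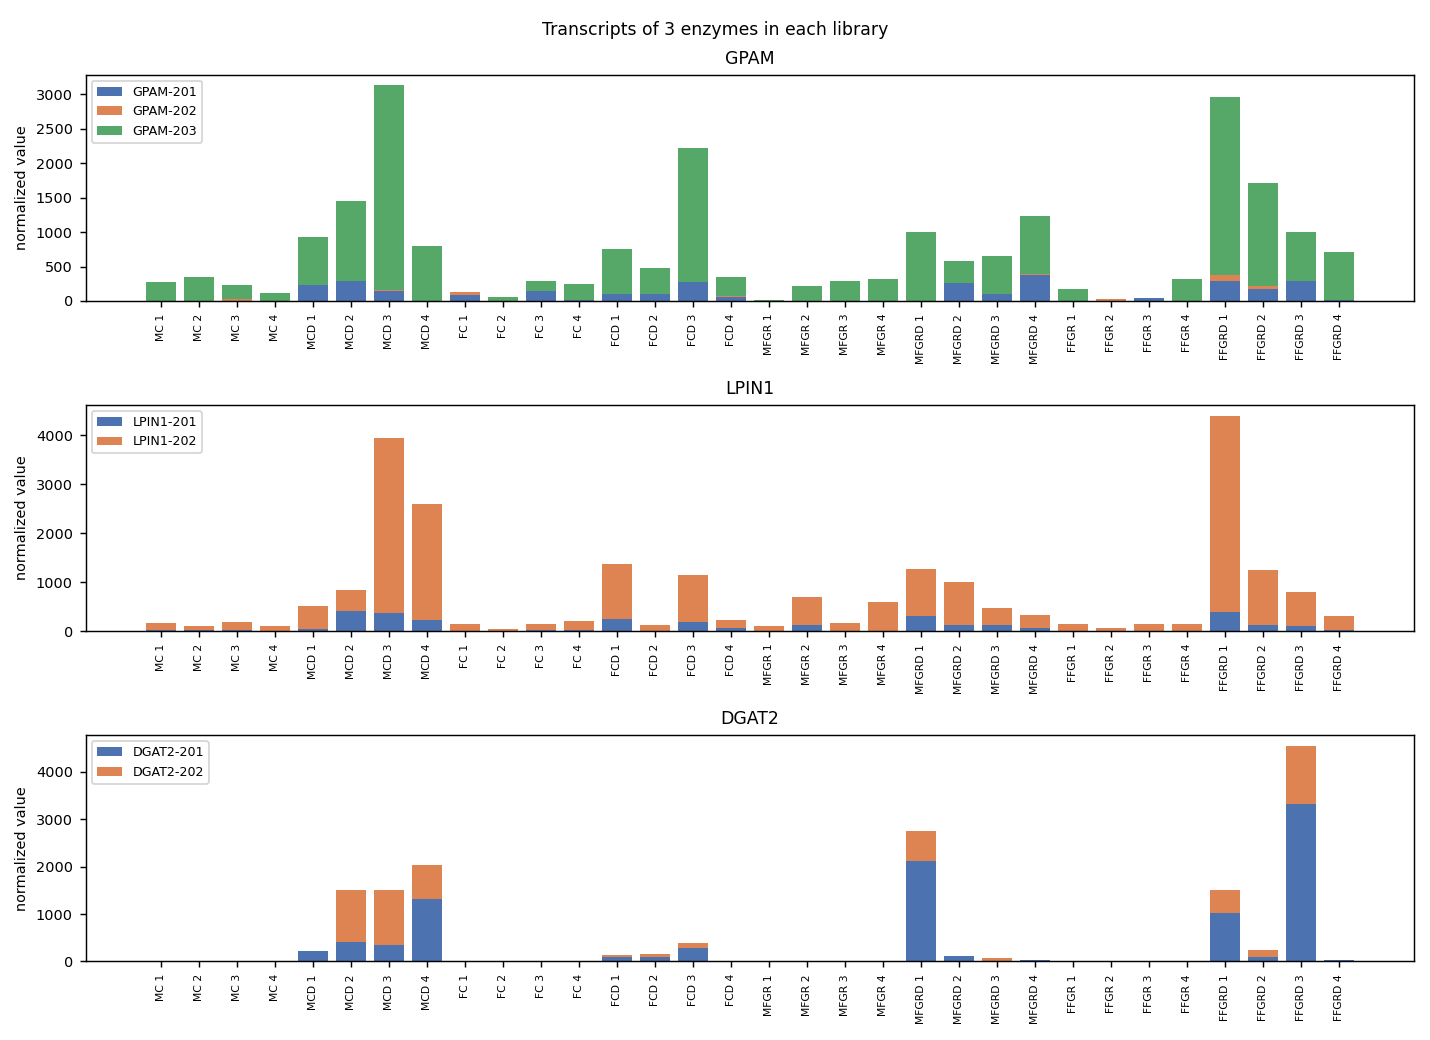
Normalized values of the transcripts of GPAM (3 transcripts), LPIN1 (2) and DGAT2 (2), stacked for each of the 32 libraries (horizontal axis). GPAM-203 and LPIN1-202 make up most of their bars in both stages, and DGAT2 is split between both transcripts in a way that differs from library to library.

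The differentiated libraries differed widely among themselves. The highest was 1286 times the lowest for DGAT2, 178 times for MOGAT1, 34.7 times for LPIN1, 19.1 times for GPAT3 and 8.82 times for GPAM, but only 2.18 to 2.76 times for the other 5 enzymes. ADIPOQ, the adipocyte hormone adiponectin, ran from 8.59 in FCD replicate 4 to 13421 in MCD replicate 3, with a median of 1197. How far each enzyme went with ADIPOQ was therefore measured over the 16 differentiated libraries, with p-values adjusted over the 10 enzymes. ADIPOQ and the enzymes come from the same libraries and share their depth and normalization.

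DGAT2 went with ADIPOQ most closely, with Pearson's r = 0.97 and Spearman's rho = 0.93 (permutation adjusted p = 5e-05 and 0.0001). MOGAT1 gave r = 0.89 and rho = 0.80, LPIN1 gave 0.75 and 0.76, GPAT3 gave 0.71 and 0.75, GPAM gave 0.64 and 0.69, and AGPAT3 gave 0.63 and 0.68. Their adjusted permutation p-values lay between 5e-05 and 0.0124 for r and between 0.0022 and 0.00674 for rho. GPAT4 gave r = 0.54 and rho = 0.72 (permutation adjusted p = 0.0434 and 0.00458), and with 1 library left out at a time its r ran from 0.47 to 0.90 and missed the threshold in 13 of 16 cases. AGPAT1, LPIN2 and LPIN3 gave r = 0.08, 0.09 and 0.22, and none of the 3 passed the threshold. Without the 2 libraries farthest from the median ADIPOQ, FCD replicate 4 and MCD replicate 3, r was 0.97 for DGAT2, 0.85 for MOGAT1, 0.70 for LPIN1 and 0.71 for GPAT3, but 0.42 for GPAM. For AGPAT3 it was 0.78 and for GPAT4 0.89.

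Over the 11 differentiated libraries without a negative span slope 4 of 10 enzymes passed, DGAT2 (r = 0.98), LPIN1 (0.88), MOGAT1 (0.87) and GPAM (0.81), and GPAT3 (0.63), AGPAT3 (0.45) and GPAT4 (0.33) did not. No correlation was taken over the 5 other libraries alone. In 6 libraries ADIPOQ lay between 6933 and 13421 and in the other 10 between 8.59 and 2356, a division made after the data were seen. Among the lower 10, r was 0.96 for DGAT2 (permutation p = 0.00018, adjusted p = 0.0036 over 20 tests) and 0.73 for MOGAT1 (adjusted p = 0.177), while AGPAT3 gave -0.37 and GPAT4 -0.31. Among the upper 6, r was -0.04 for DGAT2 and -0.01 for MOGAT1 (exact permutation p = 0.94 and 0.996). AGPAT1 gave -0.95 there, the strongest r of these 6 libraries (exact permutation p = 0.0125, adjusted p = 0.125 over 20 tests). For AGPAT3 and GPAT4 it was 0.31 and 0.40 there (exact permutation p = 0.567 and 0.419). Apart from DGAT2 in the lower 10, no enzyme passed the adjusted threshold in either set.

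**Figure D5:**
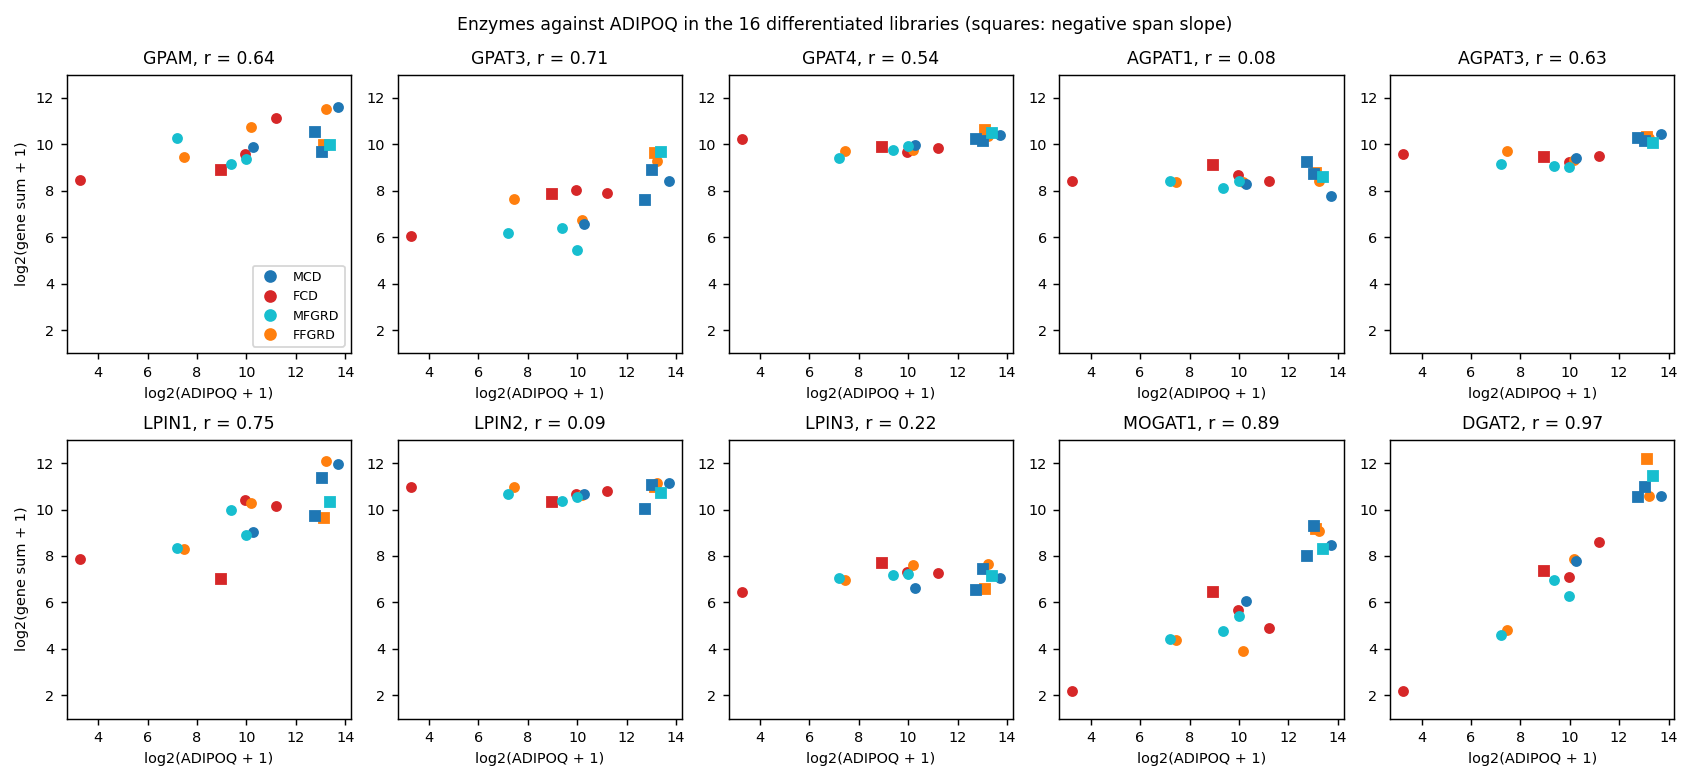
Each enzyme (vertical axis, log2(gene sum + 1)) against ADIPOQ (horizontal axis, log2(value + 1)) in the 16 differentiated libraries, coloured by group, with Pearson's r above each panel and squares for libraries with a negative span slope. DGAT2 rises with ADIPOQ over most of the range, and LPIN2 and AGPAT1 have an r of 0.09 and 0.08 over all 16.

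The enzymes also went with each other. Of the 45 pairs MOGAT1 and DGAT2 had the highest correlation over the 16 differentiated libraries, r = 0.91 (permutation adjusted p = 0.00045 over 45 pairs), and 0.86 in the 11 libraries without a negative span slope. LPIN1 with GPAM gave 0.71 (0.78 in the 11), LPIN1 with DGAT2 gave 0.68 (0.92) and GPAT3 with DGAT2 gave 0.80 (0.69). GPAM with GPAT3 gave 0.39 (0.69), with a permutation adjusted p of 0.258 over the 16. Enzymes that were not called also went with others, with 0.83 (0.78) for GPAT4 and AGPAT3, the second highest of the 45, and 0.79 (0.77) for GPAT3 and AGPAT3. With group means removed, over all 32 libraries, the genes most like DGAT2 were THRSP (r = 0.93), SLC27A6 (0.92) and PLIN1 (0.91). Those most like GPAM were BPNT2 (0.90), SIK2 (0.88) and CMYA5 (0.86), those most like LPIN1 were STAT5A (0.87), TMCC1 (0.84) and FASN (0.84), and those most like GPAT3 were CAV2 (0.86), ACO1 (0.82) and TSKS (0.81). For MOGAT1 they were DEPDC7 (0.85), SLC25A25 (0.83) and MMP28 (0.83). The values for these like genes include the 9 libraries with a negative span slope, and none was taken without them.

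The rest of the pathway was read from lists of gene names. Of the remaining acyltransferases 1 of 5 tested was called over all origins, against 27.9% of all genes, namely LCLAT1, which acylates lysocardiolipin and lysophosphatidate, with a log2 fold change of 0.91 (SE 0.29, limma adjusted p = 0.015). MOGAT2 was listed at 0 in 31 of 32 libraries, and DGAT1, like AGPAT2, could not be analysed, since no deposited value carries its name. Of the genes for the supply of glycerol 3-phosphate and glycerol 4 of 7 were called, all higher, against 12.7% of all genes called higher. GPD1, which makes glycerol 3-phosphate from a glycolytic intermediate, rose by 3.74 (SE 0.53) and PGP, a glycerol 3-phosphate phosphatase, by 0.81 (SE 0.30). PCK1, which starts glyceroneogenesis, and AQP3, a glycerol channel, were called from very low levels, with medians of 4.61 and 11.1 after differentiation and of 0 before. Their highest preadipocyte values were 2.745 and 1.218, so both passed the filter only through differentiated libraries. A rise was thus favoured in advance for them, and the share of genes is no fair comparison for PCK1 and AQP3.

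Of the genes for fatty acid and acyl-CoA supply 9 of 16 were called higher, against the same 12.7%, and 2 lower. The fatty acid translocase CD36 rose by 6.72 (SE 0.62), the elongase ELOVL6 by 3.66 (SE 0.49) and the acyl-CoA synthetase ACSL1 by 3.45 (SE 0.46). ACSS2 (2.81), SCD (2.77), LPL (2.70), FASN (1.68), SLC27A4 (1.14) and ACACA (0.92) also rose, whereas the acyl-CoA synthetase ACSL5 fell by 2.88 (SE 0.20) and the elongase ELOVL5 by 0.87 (SE 0.12). Limma adjusted p-values for these 11 genes lay between 3.57e-12 and 0.0229. The median log2 fold change was 1.03 in this list, 0.82 for glycerol supply and 0.19 for the remaining acyltransferases, against 0.03 for all genes.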

How the data were processed

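RNA of 32 libraries was compared by sex, growth restriction and stage. Groups were taken from sample titles. In the authors' processing, reads whose mean Phred quality fell under 34 were dropped, Salmon assigned the rest to the Ensembl transcripts of build Oar_rambouillet_v1.0, and DESeq2 scaled all libraries together. The signal deposited by the authors is this scaled read value per transcript. The submitters' processing notes name FastQC 0.11.9. The authors also deposited group means and columns of fold changes and p-values of their own comparisons, which were not used. The steps between low values vary, so reads per library and the value of 3 reads are approximate, and limits from them cover counting error only.

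Gene sums were tested with limma 3.58.1 (R 4.3.3, empirical Bayes with trend) on log2(value + 1), for features that reached 10 in 4 or more of the libraries fitted, with Benjamini-Hochberg adjustment over all genes. Fold changes are on this scale and understate those of low genes. Ratios and correlations used permutation tests (100000, or exact over 70 splits of 4 against 4). The script was tested on simulated data.

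All 10 enzymes and their transcripts are named, with the called genes of the first 3 pathway lists, and the likeness genes are the 3 with the highest residual r. The members and lists were chosen with earlier results of these data known. Replicate numbers are shared between stages, and the labels do not say whether they pair the libraries. In MC, FC and MFGR the deviations of same-numbered libraries correlated at 0.16 to 0.67, but MC replicate 2 was closer to MCD replicate 1 (0.21). In FFGR replicates 1, 3 and 4 gave 0.33, 0.56 and 0.53, and replicate 2 gave -0.40. FFGR replicate 1 was closer to FFGRD replicate 2 (0.35), and FFGR replicate 2 was closest to FFGRD replicate 3 (0.68). All other preadipocyte libraries were closest to the differentiated library of their own number. MFGR replicate 1 and MFGRD replicate 1 (0.67) both have a negative span slope, whose part was not tested. Alternatives were another pseudocount, normalization, filter, library weights, span slope as a covariate, replicate block, group means removed, 1 fit of all 8 groups, single transcripts and each library left out. No sequence is printed, since no genome of the build was used here.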

Additional observations from a re-analysis of the deposited data

Results flagged for a closer look

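Of 80 sets of 4 libraries (10 enzymes in 8 groups), 8 held a library whose gap to the nearest other, as a share of the range, exceeded Dixon's 95% critical value, and chance alone would give approximately 4. In MFGRD replicate 1 this held for 4 enzymes: DGAT2 at 2757 (median of the other 3 libraries 77.3), GPAT3 at 817 (70.8), MOGAT1 at 312 (25.9) and AGPAT3 at 1055 (539.7). This library also had the highest ADIPOQ of its group, 10713 against 146 to 1012, and is one of the 9 libraries with a negative span slope. The part of either in these values was not tested. In the preadipocyte library MFGR replicate 1, which has the same slope property, GPAT3 was low at 4.17 (15.7). GPAT3 was also low at 64.4 (235) in FCD replicate 4, the library whose adipocyte markers summed to a value within the range of all preadipocyte libraries. AGPAT1 was high in FFGRD replicate 3 at 433 (331). DGAT2 in FC replicate 4, at 0.774 against 0 in the other 3, corresponds to approximately 1 read.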

How the results depend on the processing

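Over all origins the same 5 enzymes were called under every setting run, including each of 32 libraries left out (5 to 5) and without the 9 libraries with a negative span slope. That setting and the division of the ADIPOQ range were chosen after the data were seen. The count of transcripts called stayed at 8 (8 to 8). No growth restriction, sex or response comparison called an enzyme under any setting (0 to 0). Within origins the counts moved, and the cause was not tested except where fewer libraries or features were in the fit. In FC, where 0 enzymes were called, library weights gave 4, the span slope as a covariate 1 and a single fit of all 8 groups 1, while leaving out a library gave 0 to 0. In MFGR, where 1 was called, library weights gave 4, the span slope 4 and the single fit 3, whereas the study's stricter filter on low values and single transcripts each gave 0. In FFGR, where 2 were called, library weights gave 5, the span slope 4 and the single fit 5, single transcripts gave 1, and a pseudocount of 0.1 and the study's filter each gave 0. With 1 library left out the count was 3 to 5 in MC, 0 to 2 in MFGR and 0 to 1 in FFGR. Over all genes the counts called ran from 1764 to 4207 under the alternatives with no single library left out for all origins (3556 in the fit reported), 427 to 2052 in MC (874), 11 to 1504 in FC (50), 127 to 2081 in MFGR (393) and 31 to 4138 in FFGR (310). With 1 library left out they ran from 3393 to 3582 for all origins, 311 (without MCD replicate 3) to 1746 (without MCD replicate 1) in MC, 0 (without FCD replicate 3) to 95 (without FC replicate 2) in FC, 77 (without MFGRD replicate 2) to 317 in MFGR and 26 (without FFGRD replicate 2) to 259 in FFGR.

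The difference in the LPIN2 to LPIN3 ratio missed the threshold under quantile normalization (-0.32) and without the 9 libraries (-0.12), and with 1 library left out it ran from -0.54 to -0.35 and missed it in 16 of 32 cases. The GPAM to GPAT3 ratio ran from -0.95 to -0.59, past the threshold in 3 of 32 cases, and with the replicate block it was -0.79 and past it. The block changed no other call in MC, FC, MFGR or over all origins. The number of enzymes that went with ADIPOQ was 4 without the 9 libraries and 6 to 7 with 1 library left out. With group means removed AGPAT3 (r = 0.53) and GPAT4 (r = 0.46) missed the threshold, and under quantile normalization GPAT4 (r = 0.47) missed it.

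Directions changed for values near 0 that were not called. Over all origins AGPAT1 was -0.00376 under quantile normalization, -0.036 with library weights, -0.00264 with the span slope and -0.10 without the 9 libraries, LPIN2 was 0.045 under quantile normalization and 0.088 without the 9 libraries, and AGPAT3 was -0.089 with library weights. Library weights gave -0.27 for AGPAT1 in MC, -0.039 for AGPAT3 in FC, -0.057 for GPAT4 in MFGR and -0.16 for GPAT4 in FFGR. The span slope gave -0.21 for AGPAT1 in MC, 0.00765 for GPAT4 in FC, and 0.053 for AGPAT1 and 0.0102 for LPIN2 in FFGR. Quantile normalization gave 0.10 for GPAT4 in FC, 0.00690 for LPIN2 in FFGR and r = -0.0401 for LPIN2 with ADIPOQ. The response of MOGAT1 in MFGR against the other origins was 0.16 with a pseudocount of 0.1, and r of AGPAT1 with ADIPOQ was -0.39 without the 9 libraries. With 1 library left out, the log2 fold change over all origins ran from -0.056 to 0.052 for AGPAT1 and from -0.061 to 0.033 for LPIN2. In MC it ran from -0.15 to 0.33 for AGPAT1 and from -0.028 to 0.34 for LPIN2, and in FC from -0.16 to 0.25 for AGPAT3, -0.11 to 0.077 for GPAT4 and -0.021 to 0.19 for LPIN2. In MFGR it ran from -0.18 to 0.18 for GPAT4, and in FFGR from -0.12 to 0.075 for AGPAT1, -0.27 to 0.089 for LPIN2 and -0.068 to 0.23 for GPAT4. The MFGR response difference ran from -1.35 to 0.059 for GPAT3, -0.32 to 0.037 for GPAT4 and -1.16 to 0.13 for MOGAT1. The r with ADIPOQ ran from -0.047 to 0.32 for AGPAT1, -0.017 to 0.31 for LPIN2 and -0.12 to 0.34 for LPIN3.

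Depth limits DGAT2 and MOGAT1 in preadipocytes, where 14 and 7 of 16 values lie at or below 3 reads, so differences between preadipocyte groups rest on few reads. Fitted without the filter, the difference by growth restriction was 0.45 for DGAT2 and 0.54 for MOGAT1, and neither passed the threshold.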

Other observations

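Beyond the enzymes themselves, other genes that use phosphatidate or diacylglycerol were called over all origins in 4 of 16 cases, 3 higher and 1 lower, against 27.9% of all genes tested. PLPP3, a phosphatase of lipid phosphates, rose by 2.25 on the log2 scale (SE 0.28, limma adjusted p = 2.85e-07), while its relative PLPP2 fell by 2.65 (SE 0.34, adjusted p = 3.9e-07). PLPP1, with medians of 1649 before and 1688 after differentiation, was not called. The diacylglycerol kinase DGKQ rose by 0.88 (SE 0.13) and the phosphoethanolamine transferase SELENOI by 1.17 (SE 0.33). These genes were named after their values were seen.

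Of the regulators 4 of 7 tested were called, each higher, against 12.7% of all genes called higher. The adipogenic factors CEBPA and PPARG rose by 4.02 (SE 0.46) and 2.26 (SE 0.48), and MLXIPL, which encodes a carbohydrate-responsive factor, was called from a preadipocyte median of 1.01 to 12.5. The highest preadipocyte value of MLXIPL was 6.512. It therefore passed the filter only through differentiated libraries, and a rise was favoured in advance. PPARGC1A, a coactivator that works with LPIN1, rose by 1.46 (SE 0.46, limma adjusted p = 0.0129).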
